A study of Mus musculus with 17 samples.

Results

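Interchromosomal (trans) contacts of the mouse α-globin locus were taken from Capture-C libraries as every DpnII fragment that lay on a chromosome other than chromosome 11 and was ligated at least once to an α-globin viewpoint. In Ter119+ cells the viewpoints were the boundary elements HS39 and HS38, the enhancers R1 and R2, and the promoters Hba-1 and Hba-2. In CD71+ cells they were HS38 and both enhancers. Names are those of the files. The position the study gives for its HS-38 site falls in the viewpoint named HS39 and not in the one named HS38, so these names may be exchanged. On mm9 they lie at chr11:32137176-32137426, 32138079-32139000, 32145277-32146568, 32151060-32151883, 32182969-32183821 and 32195804-32196638, in that order. The first 4 are inside the gene Nprl3 (chr11:32125628-32167707), whose introns hold some of the α-globin enhancers, and the last 2 take in the start of Hba-a1 and of Hba-a2. The study describes the promoters of these 2 genes as identical in sequence and used a single-base difference to make separate contact profiles for them. In the counts used here Hba-1 and Hba-2 gave close values, such as 15257 and 15239 trans counts in wild-type replicate 1. How far their reads were told apart was not tested, so they may not be independent viewpoints. A stretch on chromosome 6 that shares sequence with R2 was left out. The rule found 291297 fragments of the 678331 that any single viewpoint contacted, holding 562304 of 3679216 interaction counts. Most were seen rarely, since 51.9% of the fragments had 1 count over all 17 libraries, and contacts were therefore summed in bins of 1 Mb (2464 bins with a count) and expressed as a percentage of the trans counts of the library, called the share below.

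Ter119+ erythroid cells were isolated from the spleens of adult mice on a C57BL/6J background treated with phenylhydrazine, an agent that destroys red cells and drives the spleen to make new ones. The mice were wild type (WT, n = 3) or, as QuadDel (n = 3), carried deletions of CTCF sites downstream of the enhancers, namely θ1 and θ2 at the θ-globin genes together with HS+44 and HS+48 and the DNA between these. CD71+ erythroid cells were made by 7 days of embryoid body culture from E14TG2a-derived embryonic stem cells, which keep a single copy of the α-globin locus with an mVenus reporter at Hba-a1. These carried no insert (WT αYFP, n = 3), an α-globin promoter placed upstream of Hba-x (αPonly, n = 4), or a promoter with its gene body at the same place (αP+G, n = 4), and the study describes them as close to primitive erythroblasts. All 3 CD71+ groups thus share the reporter and the single locus.

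Chromosomes occupy separate territories in the nucleus, and a locus meets other chromosomes mostly where its territory borders or intermingles with theirs. Active, gene-rich chromatin tends to meet other active chromatin and inactive chromatin other inactive chromatin, and centromeres tend to cluster, as do telomeres. In erythroid cells the α-globin genes, the β-globin genes on chromosome 7 and Slc25a37 on chromosome 14, which encodes the mitochondrial iron importer mitoferrin, are all strongly transcribed, and whether such genes meet in shared sites of transcription has long been asked of them. In Capture-C a trans count can also arise from ligation between molecules that were not together in the nucleus, or from a read that aligned to a similar sequence elsewhere.

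Some of the strongest trans fragments matched the α-globin locus itself, and their sequences are shown for that reason. Of the 10 fragments with the highest counts, which held 0.496% of all trans counts, 8 gave an alignment to the α-globin region (blastn), 3 of them at many places of it (11 to 82 alignments), and 1 gave none. The remaining one was not aligned. The pairs below are from mm9, with aligned identical bases in capitals. The fragment chr17:26424379-26424618 (plus strand), beside the α-globin pseudogene Hba-ps4 (chr17:26423308-26424006), aligned at 84.9% identity over 239 columns to chr11:32182971-32183209 (minus strand), inside the Hba-1 viewpoint.
chr17 fragment beside Hba-ps4: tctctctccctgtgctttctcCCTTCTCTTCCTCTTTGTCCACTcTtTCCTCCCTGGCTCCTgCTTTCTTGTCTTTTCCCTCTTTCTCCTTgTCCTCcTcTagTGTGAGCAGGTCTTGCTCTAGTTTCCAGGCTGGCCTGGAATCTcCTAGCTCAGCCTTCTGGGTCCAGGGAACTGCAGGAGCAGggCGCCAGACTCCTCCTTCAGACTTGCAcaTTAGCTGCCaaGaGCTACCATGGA
alpha-globin counterpart of the chr17 fragment beside Hba-ps4: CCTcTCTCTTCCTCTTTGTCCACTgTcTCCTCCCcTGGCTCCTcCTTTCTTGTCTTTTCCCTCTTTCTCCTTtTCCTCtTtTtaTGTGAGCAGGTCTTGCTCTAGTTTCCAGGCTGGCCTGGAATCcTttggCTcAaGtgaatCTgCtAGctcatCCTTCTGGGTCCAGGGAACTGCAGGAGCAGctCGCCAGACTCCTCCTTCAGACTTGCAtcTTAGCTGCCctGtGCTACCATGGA
The intergenic fragment chr15:56004713-56004887 (plus strand) aligned at 90.6% over 85 columns to chr11:32183025-32183108 (plus strand), also inside that viewpoint.
chr15 fragment: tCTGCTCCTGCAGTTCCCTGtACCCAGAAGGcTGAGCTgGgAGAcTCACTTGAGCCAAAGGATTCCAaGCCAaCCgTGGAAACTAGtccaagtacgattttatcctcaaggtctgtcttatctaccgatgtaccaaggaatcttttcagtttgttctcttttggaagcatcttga
alpha-globin counterpart of the chr15 fragment: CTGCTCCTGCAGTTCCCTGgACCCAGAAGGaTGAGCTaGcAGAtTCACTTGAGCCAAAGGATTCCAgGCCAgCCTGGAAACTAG
The intergenic fragment chr17:26438451-26438723 (plus strand) had the highest count of all and aligned at 93.7% over 222 columns to chr11:32189503-32189723 (minus strand), between Hba-a1 and Hba-a2 and in no viewpoint.
chr17 fragment of all viewpoints: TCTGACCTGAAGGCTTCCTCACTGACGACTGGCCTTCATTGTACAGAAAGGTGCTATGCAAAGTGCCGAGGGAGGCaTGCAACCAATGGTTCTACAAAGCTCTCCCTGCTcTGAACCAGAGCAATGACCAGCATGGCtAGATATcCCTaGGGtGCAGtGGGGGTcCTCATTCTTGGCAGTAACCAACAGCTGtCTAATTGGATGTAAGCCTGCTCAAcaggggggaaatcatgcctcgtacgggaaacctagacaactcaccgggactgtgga
alpha-globin counterpart of the chr17 fragment of all viewpoints: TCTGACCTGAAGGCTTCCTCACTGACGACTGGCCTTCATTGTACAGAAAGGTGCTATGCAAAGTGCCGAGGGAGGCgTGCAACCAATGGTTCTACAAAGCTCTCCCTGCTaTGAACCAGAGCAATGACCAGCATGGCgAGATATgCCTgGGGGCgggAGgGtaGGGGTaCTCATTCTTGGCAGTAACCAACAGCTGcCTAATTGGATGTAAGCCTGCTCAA

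Shorter shared runs lay at a viewpoint end or, for the chromosome 13 fragment, inside the viewpoint. Here the capitals mark the run that both sequences share without a mismatch. The end of R2 (chr11:32151803-32151883, plus strand) shared 21 bases with the chromosome 6 fragment that was left out (chr6:117878883-117878965, minus strand).
R2 viewpoint, end: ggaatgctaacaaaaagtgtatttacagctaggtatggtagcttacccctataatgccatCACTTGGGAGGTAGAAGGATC
left-out chr6 fragment: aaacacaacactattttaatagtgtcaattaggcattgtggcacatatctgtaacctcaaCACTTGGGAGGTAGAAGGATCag
R1 (chr11:32145282-32145423, plus strand) shared 22 bases with the fragment chr13:25790812-25791606 (shown from 25790903 to 25791044, minus strand).
R1 viewpoint: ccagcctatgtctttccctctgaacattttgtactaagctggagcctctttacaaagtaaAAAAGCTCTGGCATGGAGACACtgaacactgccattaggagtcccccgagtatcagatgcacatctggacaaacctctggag
chr13 fragment: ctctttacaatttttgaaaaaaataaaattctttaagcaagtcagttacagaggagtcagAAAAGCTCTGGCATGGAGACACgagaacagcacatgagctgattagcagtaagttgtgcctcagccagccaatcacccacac
The start of R1 (chr11:32145277-32145328, plus strand) also shared 12 bases, cut site included, with the end of the Slc25a37 viewpoint (chr14:69903418-69903469, minus strand).
R1 viewpoint, start: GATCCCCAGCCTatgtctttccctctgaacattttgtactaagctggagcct
Slc25a37 viewpoint, end: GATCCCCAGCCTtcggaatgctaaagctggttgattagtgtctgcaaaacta

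Fragments that aligned to a promoter viewpoint or beside it had their counts almost only from Hba-1 and Hba-2, in near equal parts. The chromosome 17 fragment beside Hba-ps4 had 437 counts, of which Hba-1 gave 218 and Hba-2 gave 210, and its neighbour (chr17:26424619-26425028), which aligned at 87.5% to bases next to the Hba-2 viewpoint (chr11:32195544-32195805), had 331, with 164 by Hba-1 and 167 by Hba-2. The chromosome 15 fragment had 227 counts, of which the viewpoint Hba-1 gave 108 and Hba-2 gave 114. These 3 fragments held at most 1 count in CD71+ libraries, where no promoter viewpoint was captured. The chromosome 13 fragment had 201 counts, all from R1 and 199 of them in CD71+ cells. By contrast, the chromosome 17 fragment that matched no viewpoint had 464 counts from all 6 viewpoints (fewest, 13, from HS39 and most from R2), in 17 of 17 libraries, and 0 from the β-globin and Slc25a37 viewpoints. Another fragment, for which no sequence is given, had 198 counts, all from R2. Those at chr10:121200006-121200445 (332 counts) and chr2:98506204-98508379 (195 counts) were also reached by the β-globin and Slc25a37 viewpoints, with 440 and 266 counts. How many reads of each fragment came from the α-globin locus was not tested.

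The depth of the libraries set what could be seen. The α-globin viewpoints gave 44461 to 72252 trans counts per Ter119+ library, with a median of 14 to 26 counts in a bin, and 10538 to 23501 per CD71+ library, with a median of 4 to 8. A bin with 0 counts therefore allowed a share of up to 0.00415% to 0.00675% in a Ter119+ library and 0.0128% to 0.0285% in a CD71+ library (3 counts of the total). These limits and all intervals cover counting error only. One library stood apart. QuadDel replicate 3 had 4.03% of its trans counts on chromosome X and 0.0157% (7 counts) on chromosome Y, whereas the other 16 libraries had 2.26% to 2.99% and 0.132% to 0.270%. The β-globin viewpoints of that library gave 5.22% on X and 1 count on Y, and the Slc25a37 viewpoint 3.66% and 0 counts, so that results are also given without it where they change.

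To ask how much of the α-globin contact lay on other chromosomes, the trans share of each viewpoint was taken as trans counts over trans counts plus chromosome 11 counts outside the exclusion zone around the viewpoint. In Ter119+ cells the viewpoints named HS39 and HS38, which lie farthest upstream, had the lowest trans shares (26.0% ± 3.06 and 28.5% ± 4.77, SD, n = 6). The promoters Hba-2 and Hba-1 followed (31.5% ± 2.86 and 31.8% ± 2.81), then the enhancers R1 (35.3% ± 3.20) and R2 (38.8% ± 4.48). Of the 15 pairs of viewpoints, 13 differed in the same direction in 6 of 6 libraries (two-sided exact permutation of signs, p 0.03125, which is the least that 6 libraries allow, and 0.0361 after adjustment over the pairs). HS39 and HS38 did not differ beyond the spread (adjusted p 0.0670), nor did Hba-1 and Hba-2 (0.0938). As reads of Hba-1 and Hba-2 may not have been told apart, their pairs with the other viewpoints may not be separate results.

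The place of R1 in this order depended on which chromosome 11 counts were taken. R1 lay above Hba-1 by 3.496 percentage points, but by -6.48 when no zone was excluded, by -3.82 when chromosome 11 counts within 100 kb were left out, and by -4.36 when each fragment was counted once, while R2 stayed above R1 in all of these. In CD71+ cells the order was the same for the viewpoints captured there: HS38 26.5% ± 1.95, R1 31.2% ± 1.97 and R2 32.5% ± 1.76 (SD, n = 11). Each of the 3 pairs differed in 11 of 11 libraries (two-sided exact permutation of signs, p 0.000977, which is the least that 11 libraries allow, before and after adjustment). Counts from Ter119+ and CD71+ cells were captured separately and were not tested against each other.

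**Figure D1:**
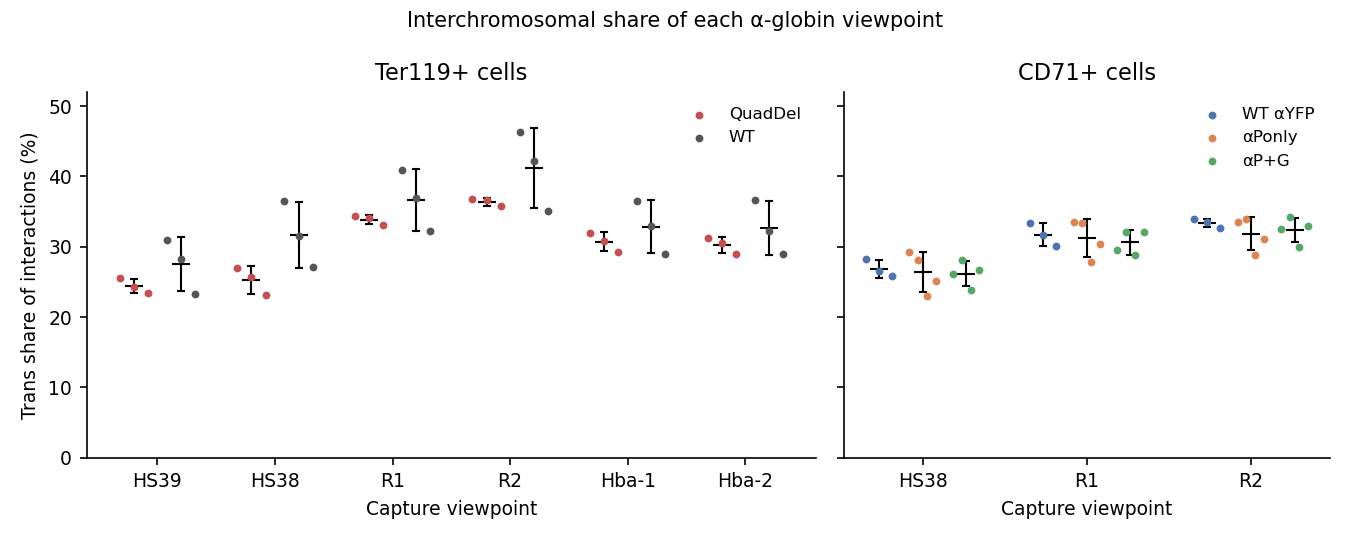
Trans share (percent of counts outside the exclusion zone) of each α-globin viewpoint in the 17 libraries, by group; each point is a library and the bars give mean ± SD. R2 was highest of the viewpoints in all 17 libraries, and the 3 WT libraries were spread more widely than the 3 QuadDel libraries.

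Between groups the trans share differed by less than the spread between libraries. Over all α-globin viewpoints it was 31.6%, 30.8% and 29.4% in QuadDel replicates 1 to 3 and 38.2%, 34.3% and 29.6% in those of WT, so that WT replicate 3 lay inside the QuadDel range. The means were 30.6% ± 1.10 and 34.1% ± 4.31 (SD, n = 3 each), a difference of -3.45 percentage points (exact two-sided permutation p 0.3, where 3 against 3 libraries allow no p below 0.1). From HS38 alone the groups did not overlap (25.3% ± 1.97 against 31.7% ± 4.70, exact permutation p 0.1, adjusted over the 6 viewpoints 0.5). The same WT libraries ranked in the same order from viewpoints on other chromosomes, with 40.0%, 36.3% and 31.7% from the β-globin viewpoints and 46.4%, 43.9% and 39.4% from the Slc25a37 viewpoint. In CD71+ cells the trans share was 31.2% ± 1.17 in WT αYFP (SD, n = 3), 30.2% ± 2.69 in αPonly and 30.2% ± 1.75 in αP+G (SD, n = 4 each), and the 3 groups overlapped. The differences were -1.003 for αPonly and -0.977 for αP+G against WT αYFP (exact two-sided permutation p 0.686 and 0.4), which share their WT αYFP libraries, and 0.0262 between αP+G and αPonly (p 1).

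Trans contacts were spread unevenly over the chromosomes, and relative to the number of DpnII sites chromosomes 19 and 17 were the highest of the autosomes. Chromosome 19 held 1.66 to 1.92 times its share of sites in the 6 Ter119+ libraries and 1.503 to 1.77 times in the 11 CD71+ libraries. Chromosome 17 held 1.46 to 1.72 and 1.22 to 1.52 times, and chromosome 15 1.16 to 1.29 and 1.11 to 1.31 times, while chromosome 9, with more genes per Mb than chromosome 15 (10.48 against 7.94), held 1.12 to 1.199 and 1.15 to 1.303 times. Chromosome Y, with 6.29 genes per Mb, had a median of 1.36 (0.131 to 2.24) in Ter119+ and 1.66 (1.096 to 2.17) in CD71+ cells, where it stood above chromosome 19, but it held on average 0.157% and 0.197% of the trans counts. Chromosome X had the lowest median of the chromosomes in all groups, at 0.353 to 0.567 times in Ter119+ and 0.318 to 0.421 times in CD71+ cells, and its highest value was that of QuadDel replicate 3. These levels were not corrected for how many copies of X or Y the cells carry. Chromosome 7, which carries the β-globin genes and has the highest gene density, stood at 1.02 to 1.08 and 1.05 to 1.16 times, and chromosome 14, with Slc25a37, at 0.907 to 0.992 and 0.840 to 1.03 times.

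**Figure D2:**
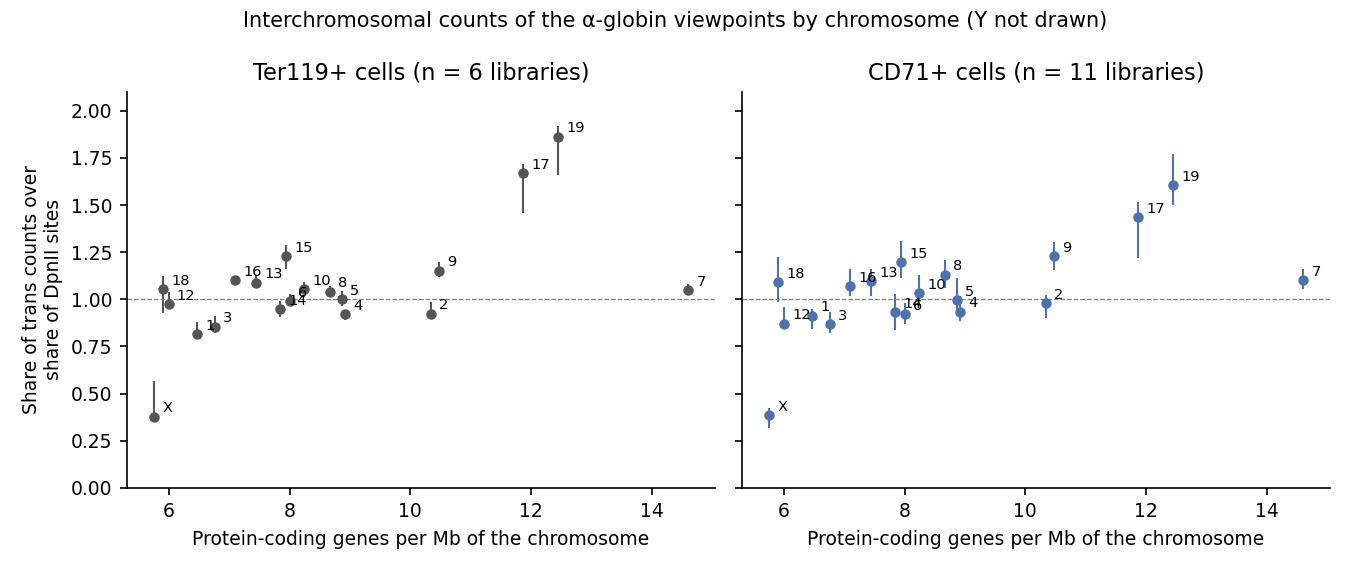
Share of the trans counts of the α-globin viewpoints over the share of DpnII sites of each chromosome (vertical axis, dashed line at 1) against its protein-coding genes per Mb (horizontal axis), for Ter119+ (n = 6) and CD71+ (n = 11) libraries; points are medians and bars run from the lowest to the highest library. Chromosomes 19 and 17 lay above 1 in every library and chromosome X at 0.567 or less; chromosome Y is not drawn.

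No chromosome differed between groups in edgeR's quasi-likelihood test at an adjusted p of 0.05, which was 0 of 20 (0%) in each of the 4 comparisons. At an unadjusted p under 0.05 there were 2 for QuadDel and WT, 0 for αPonly and WT αYFP, and 2 for each of the other comparisons, and the DESeq2 Wald test called 0 as well. For QuadDel against WT these were chromosomes 17 and 18, with log2 fold changes of 0.11 (SE 0.05) and -0.14 (SE 0.06) and an edgeR adjusted p of 0.469 for both. Without WT replicate 3, 1 chromosome (17) was called (edgeR adjusted p 0.00250).

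At the level of bins, those with many genes were contacted more. Bins of different chromosomes were pooled, so gene number and chromosome were not told apart. Bins were split by their number of protein-coding genes, a split chosen with these values known and given without a test. The classes together held fewer bins than the 2282 of the correlation below. Relative to their DpnII sites, the 187 bins with over 20 genes held 1.61 to 1.92 times their share of α-globin contacts in Ter119+ and 1.61 to 1.84 times in CD71+ libraries, and the 200 bins with no gene 0.562 to 0.706 and 0.503 to 0.575 times. The ratio of the 2 classes was 2.28 to 3.39 in Ter119+ and 2.81 to 3.66 in CD71+ libraries. From the β-globin viewpoints it was lower in 17 of 17 libraries (2.19 to 3.15 and 1.87 to 2.49), and from the Slc25a37 viewpoint higher in 17 of 17 (3.00 to 6.48 and 3.34 to 4.72). Across 2282 bins the Spearman correlation of the mean share with the number of genes was 0.49 to 0.55 in the 5 groups and with GC content 0.47 to 0.56, whereas with the number of DpnII sites it was -0.09 to -0.01. The bins share libraries, depth and base composition, and genes and GC content were not told apart.

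The position of a bin along its chromosome separated α-globin from the other viewpoints. The α-globin locus lies 32 Mb from the centromeric end of chromosome 11, where mouse chromosomes have their centromeres. The bins that start 20 to 40 Mb from that end of other chromosomes held 1.27 to 1.499 times their share of α-globin contacts in Ter119+ and 1.31 to 1.39 times in CD71+ libraries, and those beyond 120 Mb 0.693 to 0.841 and 0.756 to 0.857 times. The β-globin viewpoints, at 110 to 111 Mb on chromosome 7, had the opposite profile, with 0.856 to 0.912 and 0.859 to 0.943 times at 20 to 40 Mb but 1.27 to 1.42 and 1.22 to 1.304 times beyond 120 Mb. The ratio of near to far bins was 1.505 to 2.15 in Ter119+ and 1.59 to 1.84 in CD71+ libraries from α-globin, 0.605 to 0.716 and 0.684 to 0.768 from β-globin, and 0.810 to 0.988 and 0.761 to 0.939 from Slc25a37. It was higher from α-globin in 17 of 17 libraries against both others, and remained so among bins of 1 to 10 genes alone. These classes too were chosen with the values known and have no test, and held fewer bins than the 2282 of the correlation with genes. Only chromosomes longer than 120 Mb have bins beyond 120 Mb, so position and chromosome were not told apart.

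**Figure D3:**
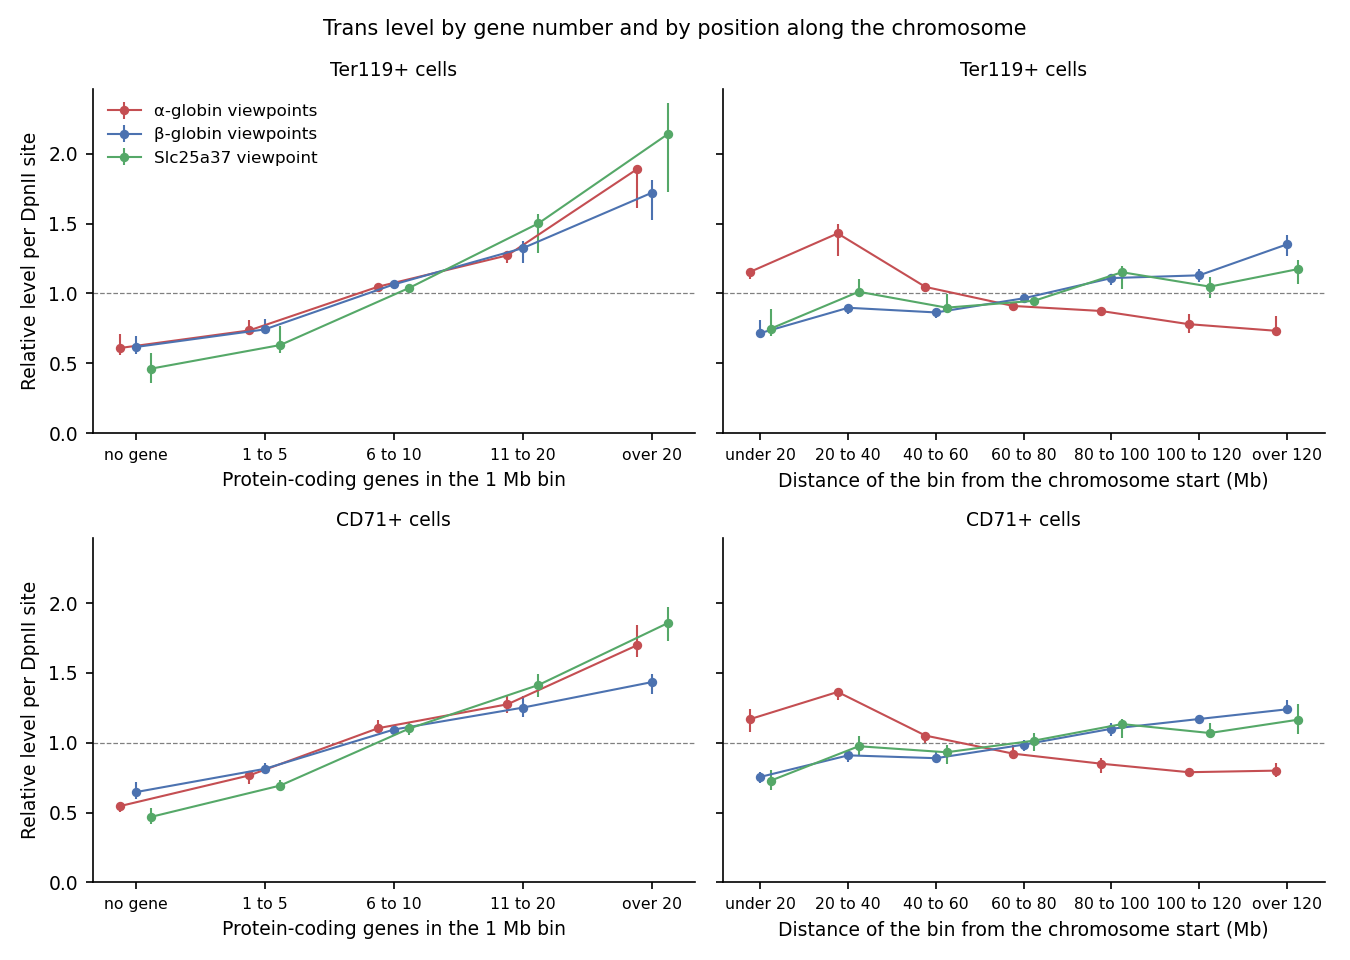
Level per DpnII site (dashed line at 1) in bins grouped by number of protein-coding genes (left) and by distance from the chromosome start in Mb (right), in Ter119+ (upper) and CD71+ (lower) cells, for the α-globin, β-globin and Slc25a37 viewpoints; points are medians over libraries and bars run from the lowest to the highest library. Contacts rose with gene number from all viewpoints, while along the chromosome the α-globin profile peaked at 20 to 40 Mb and that of β-globin rose to the far end.

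The 5 bins of the highest mean share in WT and in WT αYFP were all dense in genes. In Ter119+ cells chr17:26-27 Mb led, at 0.656% ± 0.0466 for QuadDel and 0.592% ± 0.0958 for WT (n = 3 each, SD). It holds 27 protein-coding genes, among them Luc7l and Itfg3, whose human relatives lie beside the α-globin cluster, and the pseudogene Hba-ps4. Without the 10 strongest fragments, a setting chosen after seeing the data, its share was 0.361% and 0.355%, rank 2 and 1, but 0.154% in WT αYFP, rank 19 in place of 2. Among the other leading bins of WT were chr19:5-6 Mb (0.339% ± 0.0690), which holds the nuclear RNA genes Malat1 and Neat1, chr19:4-5 Mb (0.280% ± 0.0344) and chr17:24-25 Mb (0.222% ± 0.0721). Chr9:21-22 Mb, with the erythropoietin receptor gene Epor, had rank 1 in WT αYFP (0.299% ± 0.0310), αPonly (0.309% ± 0.0482) and αP+G (0.341% ± 0.0727) and 4 in WT (0.262% ± 0.0703). WT αYFP also had chr13:23-24 Mb (0.240% ± 0.0682), with 29 Hist1 genes for replication-dependent histones, and chr2:25-26 Mb (0.206% ± 0.0945). Outside chr17:26-27 Mb no single fragment carried more than 4.01% of the counts of these bins, so that they rest on many fragments.

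Bins that hold erythroid genes lay above the median bin. Of 62 erythroid gene names, 53 could be used, in 47 bins, since 9 names, Ahsp among them, were not in the annotation. In WT the median share of these bins was 0.0640%, against 0.0337% over all bins; 43 of 47 lay above that median and 20 (42.6%) above the 90th percentile of bins. In WT αYFP the median was 0.0687% against 0.0331%, with 42 of 47 above it and 19 above that percentile. The globin and red cell enzyme genes had the highest median in WT (0.0797% in 10 bins, all above the median bin). Those bins also held the most genes, with a median of 34 against 13 to 16 in the other erythroid lists. Of the haem and iron genes Alas2, on chromosome X, had the lowest share in WT (0.00559%, rank 2442, named after its value was seen). Gata1, on the same chromosome and also named after its value was seen, had 0.143% and rank 31 in WT. Genes of other tissues, such as Alb and Pax6, had a median of 0.0348% in 18 bins, with 11 above the median bin and 2 above the 90th percentile. The erythroid bins held a median of 15 genes and those of other tissues 12, against 5 over all bins, and each of the 47 held at least 6. Within classes of equal gene number the contrast was smaller but kept its direction in WT: 0.0957% against 0.0567% for bins with over 20 genes, 0.0592% against 0.0429% for 11 to 20 and 0.0471% against 0.0383% for 6 to 10. In αP+G the last of these was 0.0364% against 0.0392%. By the mean rank over the 5 groups the leading erythroid genes were Epor (2.8), Slc25a37 (28.2), Blvrb, a biliverdin reductase (30.8), and, in a shared bin (30.8), Klf1, the erythroid Krüppel-like factor, and Prdx2, a peroxiredoxin of red cells. The rank of Slc25a37 included captured fragments, a term used here for every fragment that touches the exclusion zone of any viewpoint.

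The β-globin bin (chr7:110-111 Mb, with Hbb-b1 and Hbb-b2) did not stand above the 90th percentile of bins in any group mean, but this depended on the bin edges. Its share was 0.0547%, 0.0442% and 0.0697% in QuadDel and 0.0526%, 0.0309% and 0.0553% in WT, and the groups overlapped. In WT αYFP it was 0.0513%, 0.0340% and 0.0545%, in αPonly 0.0799%, 0.0285%, 0.0683% and 0.0646%, while αP+G libraries had 0.0422%, 0.0630%, 0.0511% and 0.0606%, again with overlap. The group means ranked between 407 (QuadDel, 0.0562% ± 0.0128, SD, n = 3) and 745 (WT αYFP, 0.0466% ± 0.0110, SD, n = 3) of 2464 bins. All 5 means lay above the median bin (0.0312% to 0.0342%) and below the 90th percentile (0.0686% to 0.0773%). In a 1 Mb window centred on the β-globin viewpoints, chosen after seeing the data, the means were 0.0749% in QuadDel, 0.0648% in WT, 0.0583% in WT αYFP, 0.0760% in αPonly and 0.0786% in αP+G, and those of QuadDel, αPonly and αP+G lay above the 90th percentiles of the bins of their groups (0.0731%, 0.0757% and 0.0757%). In αPonly replicate 2, the shallowest library, the value rests on 3 counts (Wilson 95% interval from 0.00968% to 0.0837%).

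The β-globin bin did not pass the test in any comparison. For QuadDel against WT its log2 fold change came to 0.26 (SE 0.31, exact permutation p 0.5, edgeR adjusted p 0.961), with values of 0.42 for αPonly against WT αYFP (SE 0.48, adjusted p 0.995, exact permutation p 0.343), 0.24 for αP+G against WT αYFP (SE 0.48, adjusted p 0.977, exact permutation p 0.457) and -0.19 for αP+G against αPonly (SE 0.44, adjusted p 0.998, exact permutation p 0.629). The viewpoint with the highest mean share of this bin differed between groups (HS39 in QuadDel, R1 in WT, R2 in WT αYFP and αP+G, HS38 in αPonly), and the strongest fragment of the bin (chr7:110991221-110991652) had 10 counts over all libraries. Seen from the other side, the bin of the α-globin viewpoints took 0.0964% of the trans counts of the β-globin viewpoints in Ter119+ cells (73 counts, Wilson 95% interval from 0.0767% to 0.121%, rank 76) and 0.0580% in CD71+ cells (139 counts, 0.0491% to 0.0685%, rank 454). From Slc25a37, which lies on chromosome 14, the β-globin bin held 0.0617% (43 counts, 0.0458% to 0.0831%) and 0.0450% (49 counts, 0.0341% to 0.0595%), so the intervals for β-globin seen from α-globin, 0.0435% to 0.0579% and 0.0448% to 0.0661%, overlap them.

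**Figure D4:**
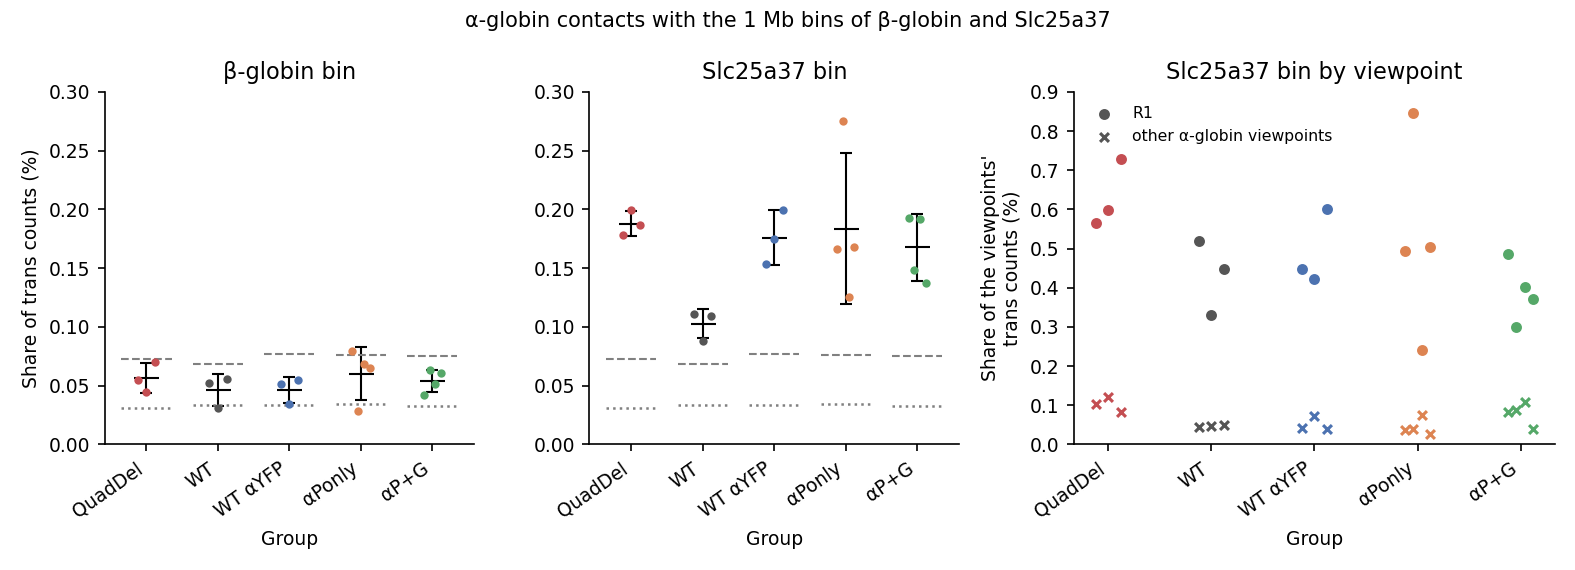
Share of α-globin trans counts (percent) in the β-globin bin and the Slc25a37 bin in each library, by group, with mean ± SD; the dotted line is the median of all 1 Mb bins and the dashed line their 90th percentile. The right panel gives the Slc25a37 bin as a share of the trans counts of R1 (circles) and of the other α-globin viewpoints together (crosses). The β-globin means of this bin stay under the dashed line in every group, and the Slc25a37 values are above it in all 17 libraries, with the 3 QuadDel libraries above the 3 WT libraries and R1 above the other viewpoints together in every library, captured fragments included.

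The Slc25a37 bin (chr14:69-70 Mb) was among the strongest trans bins. Its share was 0.178%, 0.200% and 0.187% in QuadDel and 0.111%, 0.0883% and 0.109% in WT, where every QuadDel library lay above every WT library. In WT αYFP it was 0.154%, 0.174% and 0.200%, in αPonly 0.166%, 0.275%, 0.125% and 0.168%, while αP+G libraries had 0.193%, 0.149%, 0.192% and 0.138%, with overlap between all 3. The mean ranked 18 in QuadDel (0.188% ± 0.0109), 88 in WT (0.103% ± 0.0125), 9 in WT αYFP (0.176% ± 0.0230), 9 in αPonly (0.184% ± 0.0641) and 17 in αP+G (0.168% ± 0.0287). It was the first bin of chromosome 14 in WT αYFP and αPonly.

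The difference between QuadDel and WT in this bin did not pass the test over all bins. Its log2 fold change of 0.87 had an SE of 0.23 and an edgeR unadjusted p of 0.000190 (adjusted p 0.177), and the exact two-sided permutation p of the shares was 0.1, the smallest possible. It passed when the captured fragments were left out (1.03, edgeR adjusted p 0.0418) and when each fragment was counted once per viewpoint and library (1.01, edgeR adjusted p 0.0119). The Slc25a37 viewpoint itself was captured more deeply in QuadDel, with 18036 to 24097 counts on chromosome 14 outside the exclusion zone per library against 9736 to 13792 in WT, and the part of this difference in the result was not tested. In CD71+ cells the log2 fold changes were 0.01, -0.08 and -0.10 (αPonly and αP+G against WT αYFP, and αP+G against αPonly), with edgeR adjusted p of 0.995, 0.996 and 0.999. With R1 left out, chosen after seeing the data, they were -0.17, 0.61 and 0.78 (edgeR adjusted p 0.996, 0.894 and 0.974).

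In CD71+ cells the contact with Slc25a37 came mainly from R1, the enhancer viewpoint whose first 12 bases are shown above beside the end of the Slc25a37 viewpoint, and in Ter119+ cells this depended on captured fragments. R1 gave the highest share of the bin among the α-globin viewpoints in 17 of 17 libraries, from 0.242% to 0.847%, whereas the others gave 0% to 0.201%. It supplied 56.8% of the counts of the bin in Ter119+ and 75.4% in CD71+ cells. In Ter119+ cells 160 counts, all of them from R1, fell on the single fragment chr14:69903468-69903741. This fragment is the neighbour of the Slc25a37 viewpoint, which ends at chr14:69903469, and overlaps it only within the shared cut site. As it touches the exclusion zone, it was counted among the captured fragments. Without captured fragments R1 supplied 38.2% of the counts of the bin in Ter119+ cells (141 of 369) and 75.1% in CD71+ cells (238 of 317). It was still the highest viewpoint in 6 of 6 and 11 of 11 libraries, but by little in WT replicate 2 (0.0803%, 8 counts, against 0.0636% from Hba-1, 9 counts). The other R1 counts were spread over many fragments, the strongest of which (chr14:69906257-69906473) had 17 counts in 11 libraries, all from R1. They thinned out with distance. In CD71+ cells R1 gave 130 counts within 20 kb of the Slc25a37 viewpoint, 62 at 20 to 40 kb, 19 at 40 to 60 kb and 8 at 60 to 80 kb, and the other viewpoints together gave 17, 16, 8 and 6. In Ter119+ cells R1 gave 49, 52, 13 and 3 without the captured fragments, and the other 5 viewpoints 59, 68, 14 and 9.

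With R1 left out, a setting chosen after seeing the data, the share of the Slc25a37 bin fell to 0.0463% ± 0.00268 in WT, 0.0503% ± 0.0190 in WT αYFP, 0.0446% ± 0.0202 in αPonly and 0.0795% ± 0.0289 in αP+G, near the β-globin bin. QuadDel kept 0.102% ± 0.0191, and all 3 of its libraries stayed above every WT library (p 0.1 by exact permutation, the lower limit for 3 against 3). From each of the 6 viewpoints the QuadDel mean was above the WT mean, from 0.0838% against 0.0558% (Hba-1) to 0.165% against 0.0411% (HS39), with 0.630% against 0.432% from R1. Hba-1 and Hba-2 may not be independent. In the reverse direction, the Slc25a37 viewpoint gave the α-globin bin 0.113% of its trans counts in Ter119+ (79 counts, Wilson 95% interval from 0.0910% to 0.141%, rank 117) and 0.149% in CD71+ cells (162 counts, 0.128% to 0.174%, rank 11). Of these, 22 and 35 counts lay within 20 kb of R1, 20 and 31 at 20 to 40 kb and 7 and 17 at 40 to 60 kb. The β-globin viewpoints gave 20 and 3, 13 and 19, and 9 and 3 counts at these distances. The Slc25a37 bin held 0.0726% and 0.0471% of the trans counts of the β-globin viewpoints.

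To ask whether bins differed between the genotypes, edgeR was run over all bins whose mean count reached 5. Between QuadDel and WT, 1 of 2436 bins passed an adjusted p of 0.05 (0.0411%), higher in QuadDel, with 145 at an unadjusted p under 0.05, and the DESeq2 Wald test also called 1. Without WT replicate 2 no bin passed (0 called, smallest edgeR adjusted p 0.150), though the log2 fold change of that bin was still 1.45, and without QuadDel replicate 3 there was 1. From the β-globin and Slc25a37 viewpoints together the same bin held 0.0662%, 0.0637% and 0.0530% of trans counts in QuadDel and 0.0221%, 0.0418% and 0.0362% in WT, so each QuadDel library was above each WT library from these viewpoints too. In CD71+ cells 0 of 1436 bins passed (0%) in each comparison, with 61 for αPonly against WT αYFP, 66 for αP+G against WT αYFP and 71 for αP+G against αPonly at an unadjusted p under 0.05, and 0 by the DESeq2 Wald test, which had 33, 39 and 40 at that level. At 4 to 8 counts in the median bin, small changes were not detectable in CD71+ libraries.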

How the data were processed

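Capture-C ligates DpnII-cut chromatin and enriches for fragments that hold a viewpoint. Per the submitters' processing notes, Trim Galore, Bowtie and mm9 were used, and for CD71+ cells the study aligned to an mm9 in which Hba-a1 was replaced by its reporter version. The deposited files hold the authors' raw interaction counts per viewpoint, library and DpnII fragment. The methods name several capture kits without saying which library used which. The members, lists and classes were chosen with earlier results of these data known.

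Fragments outside chromosome 11 were summed per 1 Mb bin and chromosome over each library's trans counts (10538 to 72252 per library). Exclusion zones around viewpoints were the viewpoint fragment in Ter119+ and this with 1 kb to either side in CD71+ cells. Every fragment that touched a zone was taken as inside it, which in Ter119+ cells includes neighbours that overlap the viewpoint only within the cut site. The chromosome 11 counts so excluded were 48462 to 65184 per Ter119+ library and 309 to 725 per CD71+ library. Bins whose mean count reached 5 entered the quasi-likelihood fit of edgeR 4.0.16 (trans counts as library size, Benjamini-Hochberg adjusted p of 0.05) in R 4.3.3, within each cell type, with DESeq2 1.42.0, the tool the study used, as an alternative. Single values were compared by exact permutation tests (scipy 1.17.1). The named bins were those of β-globin and Slc25a37, the called bins, the 5 highest of WT and of WT αYFP, and those of up to 5 listed erythroid genes by the mean rank of their bin over the groups, with the 10 strongest fragments. Genes were from the mm9 annotation (GENCODE vM1), and sequences were read from mm9 and aligned with blastn 2.17.0. The fits were tested on simulated data. Other bin widths, filters, size factors, viewpoint sets and libraries were tried. By the study's legends, CD71+ libraries were separate differentiations and Ter119+ libraries biological replicates. Pairs of libraries of a group differed beyond sampling noise (a chi-square of 1.65 to 2.65 per degree of freedom). The bin called between QuadDel and WT is not reported here.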

Additional observations from a re-analysis of the deposited data

Results flagged for a closer look

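In 4 of 34 groups of 4 libraries looked at, 1 library lay far from the others, where chance gives about 1 in 20 groups, and all 4 were αP+G groups. From HS38, the share of the Slc25a37 bin was 0.0983% in αP+G replicate 1, above the other αP+G libraries, but it rests on 4 counts (Wilson 95% interval from 0.0382% to 0.252%) against 1 in each of the others (0.0235% to 0.0266%), whose intervals overlap it. The ratio of bins with over 20 genes to bins with none was 3.66 in the αP+G library that stood above the others. Chromosome X held 2.99% of the trans counts of αP+G replicate 1, above its group, and chromosome Y 0.134% in αP+G replicate 3, below its group.

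The chromosome 6 region left out of all values held 5579 counts of the α-globin viewpoints, 5560 of them from R2, with 282 in Ter119+ and 5297 in CD71+ libraries. This is a signal outside the values compared, in fragments of which one shares the 21 bases shown above with the end of R2.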

How the results depend on the processing

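Of the alternatives to the main results run with all libraries, 221 stayed the same, 39 moved, 14 turned sign and 2 newly passed the threshold. A test stayed the same if it kept direction and side of the threshold. A share did so if it stayed within the SD of its group, and a count of calls if close to the main count. For QuadDel and WT the number of bins called became 0 with 5 Mb bins, 2 (the Slc25a37 bin added) with captured fragments left out or each fragment counted once, and 3 with cis and trans counts as library size; with αP+G it became 1 against WT αYFP at 500 kb and 1 against αPonly at 5 Mb. The Slc25a37 bin passed the threshold with captured fragments left out (1.03) or fragments counted once (1.01). Log2 fold changes near 0 turned sign in CD71+ cells. For β-globin, αP+G against αPonly became 0.0756 at 5 Mb, 0.0478 with the window centred on the viewpoints and 0.0685 without R1. For Slc25a37, αPonly against WT αYFP became -0.0455 at 5 Mb, -0.187 counted once, -0.0217 with cis and trans as library size, -0.0124 with the window and -0.17 without R1; αP+G against WT αYFP became 0.0229 at 500 kb and 0.61 without R1; αP+G against αPonly became 0.11 counted once and 0.78 without R1. The window and the omission of R1 or of the 10 strongest fragments were chosen after seeing the data. The β-globin bin had no value in CD71+ cells at a mean count of at least 20. The cause of these shifts was not tested.

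The trans share of αP+G against αPonly became -0.00233 without exclusion zone and -0.105 with the chromosome 6 region kept in. HS39 minus HS38 became 1.80 with cis counts within 100 kb left out and 0.685 counted once. R1 minus Hba-1 became -6.48 without zone, -3.82 without 100 kb and -4.36 counted once, and R1 minus Hba-2 -6.12, -2.76 and -3.72.

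The share of the β-globin bin (QuadDel, WT, WT αYFP, αPonly, αP+G) was 0.195%, 0.191%, 0.174%, 0.225% and 0.235% with 5 Mb bins, which hold more sequence. The window gave 0.0749%, 0.0648%, 0.0583%, 0.0760% and 0.0786%; 500 kb bins gave 0.0276% (WT αYFP) and 0.0279% (αP+G), and omission of R1 0.0589% and 0.0681%. The share of the Slc25a37 bin in the same order was 0.356%, 0.274%, 0.370%, 0.371% and 0.352% with 5 Mb bins and 0.102%, 0.0463%, 0.0503%, 0.0446% and 0.0795% without R1. In QuadDel and WT it was 0.134% and 0.0659% without captured fragments, 0.139% and 0.0695% counted once, 0.176% and 0.0899% at 500 kb and 0.210% and 0.122% with the window. Counted once it was 0.217% in WT αYFP and 0.207% in αP+G.

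Leaving out 1 library at a time gave 0 to 2 bins called for QuadDel and WT (0 without WT replicate 2, 2 without WT replicate 3), 0 to 1 for αP+G and αPonly (1 without αP+G replicate 1) and 0 to 0 for the other comparisons, and 0 to 1 chromosomes for QuadDel and WT. In the order QuadDel and WT, αPonly and WT αYFP, αP+G and WT αYFP, αP+G and αPonly, the log2 fold change ranged from 0.04 to 0.41, 0.22 to 0.61, 0.03 to 0.39 and -0.38 to -0.04 for β-globin, and from 0.77 to 0.93, -0.22 to 0.17, -0.161 to 0.0166 and -0.25 to 0.13 for Slc25a37. The difference in trans share ranged from -5.67 to -1.36, -1.76 to 0.117, -1.57 to -0.219 and -1.09 to 0.784.

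Replicate numbers did not pair the libraries (correlation of deviations between -0.05 and 0.05). With the replicate block, 1 bin was called for QuadDel and WT (smallest edgeR adjusted p 0.00546), and 0 in each CD71+ comparison.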
